A study of Mus musculus with 18 samples.

Results

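Messenger RNA of 31 genes of the delayed response to neuronal activity was followed in mouse hippocampus after rotation that disturbs the sense of orientation. The genes encode synaptic, secreted and signalling proteins, and they were chosen by symbol. All 31 were found among the 22063 genes of the count table, and all 31 passed the filter on low counts that left 14763 genes. The libraries fall into 4 groups. Mice of the S-V group (n = 5) underwent rotation in a single direction while vision was occluded. In the D+V group (n = 5) rotation had 2 directions and vision was free. In the D-V group (n = 5) rotation had 2 directions and vision was occluded, which the labels name the Coriolis illusion. The Control group (n = 3) is named blank control, and the labels do not say whether these mice were handled, restrained or occluded. Hippocampus was collected immediately after the rotation. The labels used here give no strain, age, sex, speed or duration of rotation, and nothing in them states that the libraries come from different animals. The p-values then measure only the spread from library to library, which may be technical.

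When a hippocampal neuron fires strongly, calcium enters and kinases activate transcription factors such as CREB, SRF and MEF2. A first wave of genes, with Fos, Egr1 and Npas4 among them, makes further transcription factors. A second, slower wave encodes proteins that act at the synapse or outside the cell. Homer1, Nptx2 and Nrn1 shape synapses and the receptors they hold, Pcsk1, Vgf and Scg2 fill dense-core vesicles, and Rgs2, Plk2 and Rheb adjust signalling in the cell. CREB binds the cyclic AMP response element (CRE), whose palindrome stands in the promoters of several of these genes.

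Promoter windows from 250 bases before to 50 bases after the start were found in RefSeq (GRCm38.p6) for 25 of the 31 genes. The genes without one were Nptxr, Crem, Nrn1, Baz1a, Nptx2 and Vgf. The full CRE, TGACGTCA, stood in the windows of 4 of these 25 genes (16%), Pcsk1, Scg2, Plk2 and Arl4d, against 2.03% of 27025 genes. Its core TGACG, searched on both strands and contained in the full CRE, was found in 13 of 25 (52%), against 23% of all genes. The AP-1 motif TGANTCA was found in Gpr3 and Tnfaip6 (8%, against 8.97%), the CArG box of SRF in 0 of 25 (against 1.81%), and TATAAA in 5 of 25 (20%, against 15.7%). The motif matches are a description of letters in these windows. The 120 bases before the start are printed 5′ to 3′ on the gene's strand for the 4 genes with a full CRE, which is in capitals. They are printed because Pcsk1 and Arl4d among them had means on opposite sides of the Control mean in D+V and D-V. Libraries of both genes overlapped with Control there, and neither gene passed the adjusted threshold. The same stretch is printed for Fbxo33 and Sv2c, which were among the 3 genes with the smallest p-values in each comparison with Control and neither of which has a full CRE in its window. The positions are chr13:75089737-75089856 (plus strand) for Pcsk1, chr1:79440027-79440146 (minus strand) for Scg2, chr13:110394924-110395043 (plus strand) for Plk2, chr11:101665421-101665540 (plus strand) for Arl4d, chr12:59219484-59219603 (minus strand) for Fbxo33 and chr13:96132578-96132697 (minus strand) for Sv2c.
Pcsk1: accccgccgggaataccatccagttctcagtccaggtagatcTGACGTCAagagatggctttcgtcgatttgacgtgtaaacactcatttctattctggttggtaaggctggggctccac
Scg2: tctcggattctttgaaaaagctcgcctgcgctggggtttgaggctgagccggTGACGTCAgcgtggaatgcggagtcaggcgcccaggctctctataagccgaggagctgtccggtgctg
Plk2: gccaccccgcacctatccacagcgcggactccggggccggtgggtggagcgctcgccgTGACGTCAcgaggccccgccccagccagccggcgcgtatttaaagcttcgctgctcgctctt
Arl4d: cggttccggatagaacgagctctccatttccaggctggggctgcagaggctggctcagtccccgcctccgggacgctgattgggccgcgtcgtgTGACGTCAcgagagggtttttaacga
Fbxo33: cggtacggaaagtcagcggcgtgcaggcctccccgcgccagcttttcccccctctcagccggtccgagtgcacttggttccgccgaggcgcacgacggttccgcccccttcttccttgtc
Sv2c: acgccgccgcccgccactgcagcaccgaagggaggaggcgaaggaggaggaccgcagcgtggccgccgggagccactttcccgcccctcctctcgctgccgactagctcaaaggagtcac

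In the 4 genes the first base of the CRE lay 78 bases (Pcsk1), 68 bases (Scg2), 62 bases (Plk2) and 26 bases (Arl4d) before the start. In D+V the fold changes of these 4 genes against Control lay on both sides of 0. They were 0.47 for Pcsk1, 0.00 for Scg2, −0.11 for Plk2 and −0.46 for Arl4d on the log2 scale, and in S-V all 4 were small, at 0.03, 0.03, 0.02 and 0.07 in the same order. In D-V they were 0.39, −0.01, −0.05 and −0.42 in that order.

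The summed counts of a library were 15.6 to 24.3 M estimated counts in S-V, 15.03 to 25.3 M in D+V, 15.4 to 21.4 M in D-V and 20.4 to 22.2 M in Control. The 31 genes together took 0.295% to 0.364% of the counts of a library, with single values between 6 and 28096 counts. All 11 hippocampal markers checked, such as Prox1 of the dentate gyrus and Wfs1 of CA1, were measured in each library. Their summed level was 1079 to 1411 CPM (counts per M, for sums of markers taken over the library total without TMM scaling). The CPM of single genes, given below, was scaled by TMM. Markers of the choroid plexus, a secretory tissue inside the ventricles beside the hippocampus, ran from 320 to 14428 CPM. They were high in 6 libraries, S-V 2 and 4, D+V 2 and 5, and D-V 3 and 4. Thalamus and habenula markers had scores of −0.34 to −0.10 in D-V and 0.15 to 0.59 in Control (log2 CPM relative to the median library). The summed red blood cell markers ran from 386 to 3189 CPM in D+V, 918 to 1750 CPM in D-V and 482 to 642 CPM in Control, and 0 of these 5 markers passed the adjusted threshold in any comparison with Control. Scores of 8 endothelial and pericyte markers were −0.31 to −0.03 in D+V and 0.04 to 0.22 in Control, without overlap, and 2 of the 8 passed the adjusted threshold, both lower in D+V. All 31 genes were refitted with a covariate for the choroid plexus markers, and with 1 for the thalamus and habenula markers. They were also refitted without the 6 libraries with high choroid plexus markers. In each of these fits 0 of 31 passed the adjusted threshold against Control. With the choroid plexus covariate 2.37% of all genes passed for D+V and 0% for the other groups. With the thalamus and habenula covariate 0% of all genes passed for any group. Without the 6 libraries 0.00685% passed for S-V and 0% for the others. Where almost no gene passed, a count of 0 of 31 says little about these genes. With the thalamus and habenula score the sign of the fold change was kept by 25 of 31 genes in S-V, 21 for D+V and 21 for D-V. With the choroid plexus score it was kept by 30, 31 and 28 in the same order, and without the 6 libraries by 29, 29 and 25. Of 11 tested striatum markers 9, 9 and 8 were lower than Control in S-V, D+V and D-V. Their median log2 fold changes were −0.28, −0.43 and −0.19 in that order. Of 9 neocortex markers 6, 8 and 7 were lower, with medians of −0.12, −0.05 and −0.08. Of both lists 0 passed the adjusted threshold, and scores of each rotated group overlapped with Control. Control replicate 1 had the highest score of all libraries for both lists, 0.71 and 0.38. The part of the red blood cell, endothelial, pericyte, striatum and neocortex differences in the values of the 31 genes was not tested.

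By the main test, none of the 31 genes differed beyond the spread between libraries after correction for all genes tested. With edgeR's quasi-likelihood test and Benjamini-Hochberg adjustment, 0 of 31 passed an adjusted p of 0.05 in S-V against Control, where 0% of all genes passed. In D+V against Control 0 of 31 passed, where 0.942% of all genes passed. In D-V against Control 0 of 31 passed, where 0% of all genes passed. The smallest adjusted p of any of the 31 genes was 0.174 in S-V, 0.106 for D+V and 0.7097 for D-V. Of the other tools run on the same table, DESeq2 gave other counts in S-V and D+V. DESeq2 called Fbxo33 in S-V (adjusted p = 0.0304, where 1.44% of all genes passed) and called Fbxo33 and Mfap3l in D+V (adjusted p = 0.0491 and 0.0387, where 5.14% of all genes passed). Limma's voom called 0 of the 31 genes in S-V (0% of all genes), 0 for D+V (0.935% of all genes) and 0 for D-V (0% of all genes).

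Without adjustment, edgeR gave a p under 0.05 to 5 of the 31 genes in S-V, 3 of them higher (7.41% of all genes) and 2 lower (5.95%), a share of 16.1% beside 13.4% of all genes. In D+V the count was 10 of 31, 5 higher (10.8%) and 5 lower (6.86%), a share of 32.3% beside 17.6% of all genes. In D-V it was 6 of 31, 3 higher (3.37%) and 3 lower (2.65%), a share of 19.4% beside 6.02% of all genes. Over all 15 rotated libraries against Control 0 of 31 passed the adjusted threshold (0% of all genes), 7 of 31 had an unadjusted p under 0.05 (22.6%, beside 12.9% of all genes), and DESeq2 called Fbxo33 (adjusted p = 0.0188) and Sv2c (adjusted p = 0.0349), where it called 1.75% of all genes. The fold changes had no common direction. Their median on the log2 scale was 0.03 in S-V, 0.02 for D+V and −0.01 for D-V, beside medians under 0.01 in size over all genes. The median size of a fold change, whatever its sign, was 0.15 in S-V, 0.16 for D+V and 0.12 for D-V, against 0.13, 0.14 and 0.10 over all genes in the same order. The 3 comparisons share the same 3 Control libraries, so their values are given side by side and are not independent of each other. In bulk tissue fewer cells of a type and less RNA per cell cannot be told apart, which holds for each value below.

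The 95% intervals are of single genes in the main fit, without allowance for their number, and carry only the spread between libraries. They leave out shifts with the processing, such as those given below for Homer1 and Mfap3l. In S-V the 95% interval of the fold change lay within 1.5-fold of Control in both directions for 23 of the 31 genes, and within 2-fold for all 31. In D+V 19 of 31 lay within 1.5-fold and 29 within 2-fold. In D-V 21 of 31 lay within 1.5-fold and 29 within 2-fold. For 4 genes the log2 fold change was under 0.1 in size in all 3 comparisons: Scg2, a granin of dense-core vesicles, Rgs2 and Rgs4, which speed the shut-off of G proteins, and Sorcs3, a sorting receptor of the postsynaptic density.

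**Figure D1:**
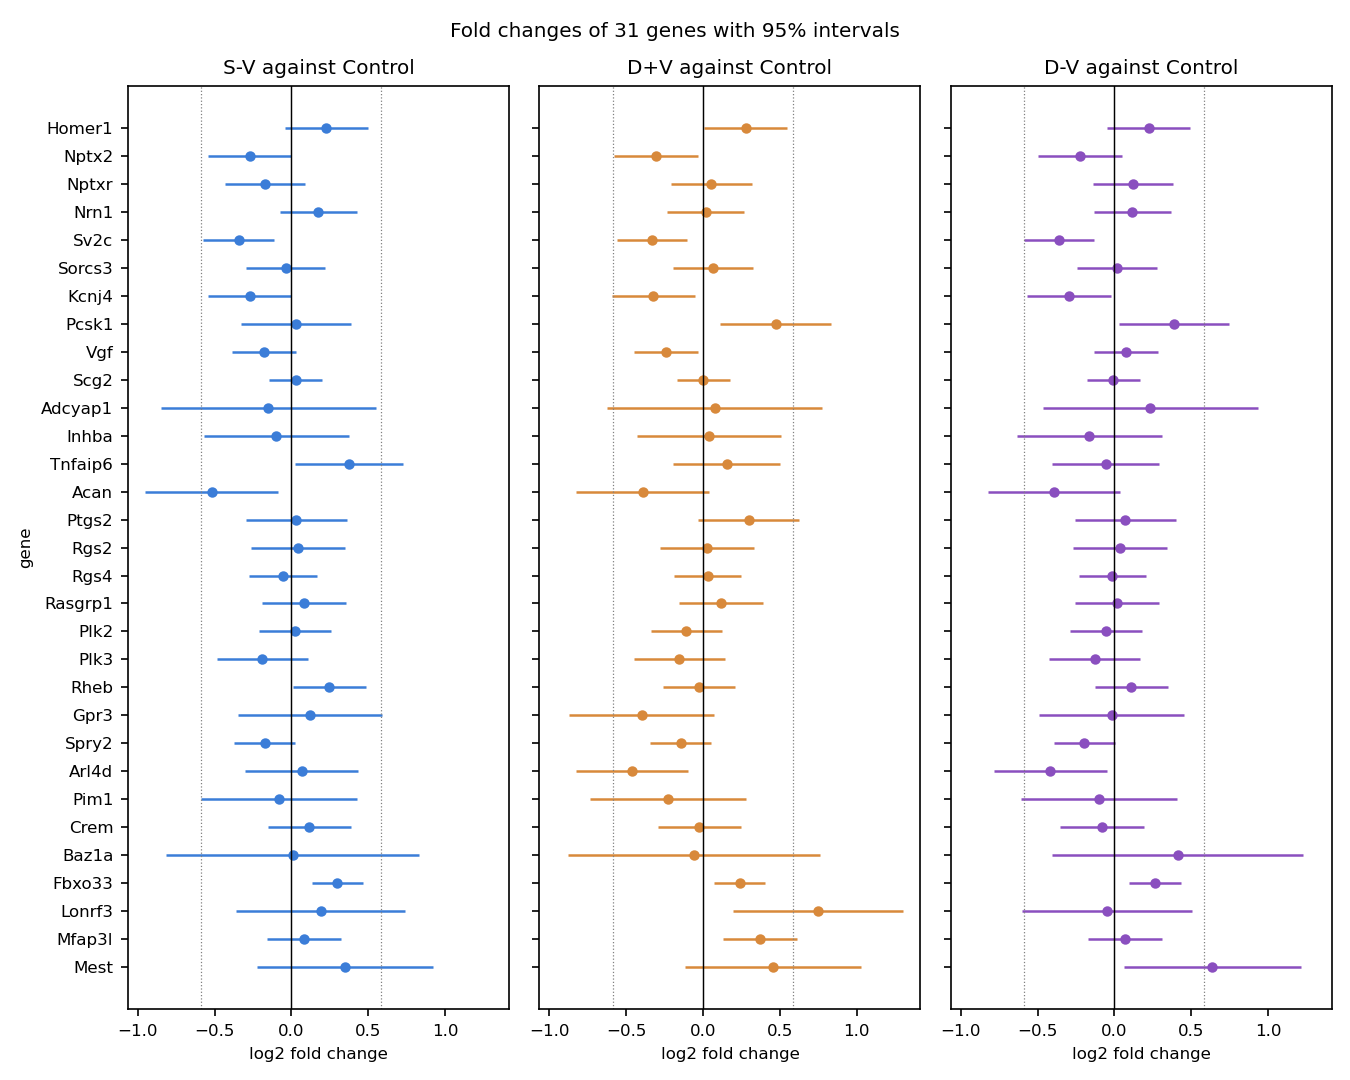
Log2 fold change (points) and 95% interval (lines) of each of the 31 genes in S-V, D+V and D-V, each against Control, with dotted lines at a change of 1.5-fold in either direction. The points lie on both sides of 0 in each panel, with medians of 0.03, 0.02 and −0.01, and Lonrf3 in D+V has the highest value of any gene in the 3 panels, 0.75.

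**Figure D2:**
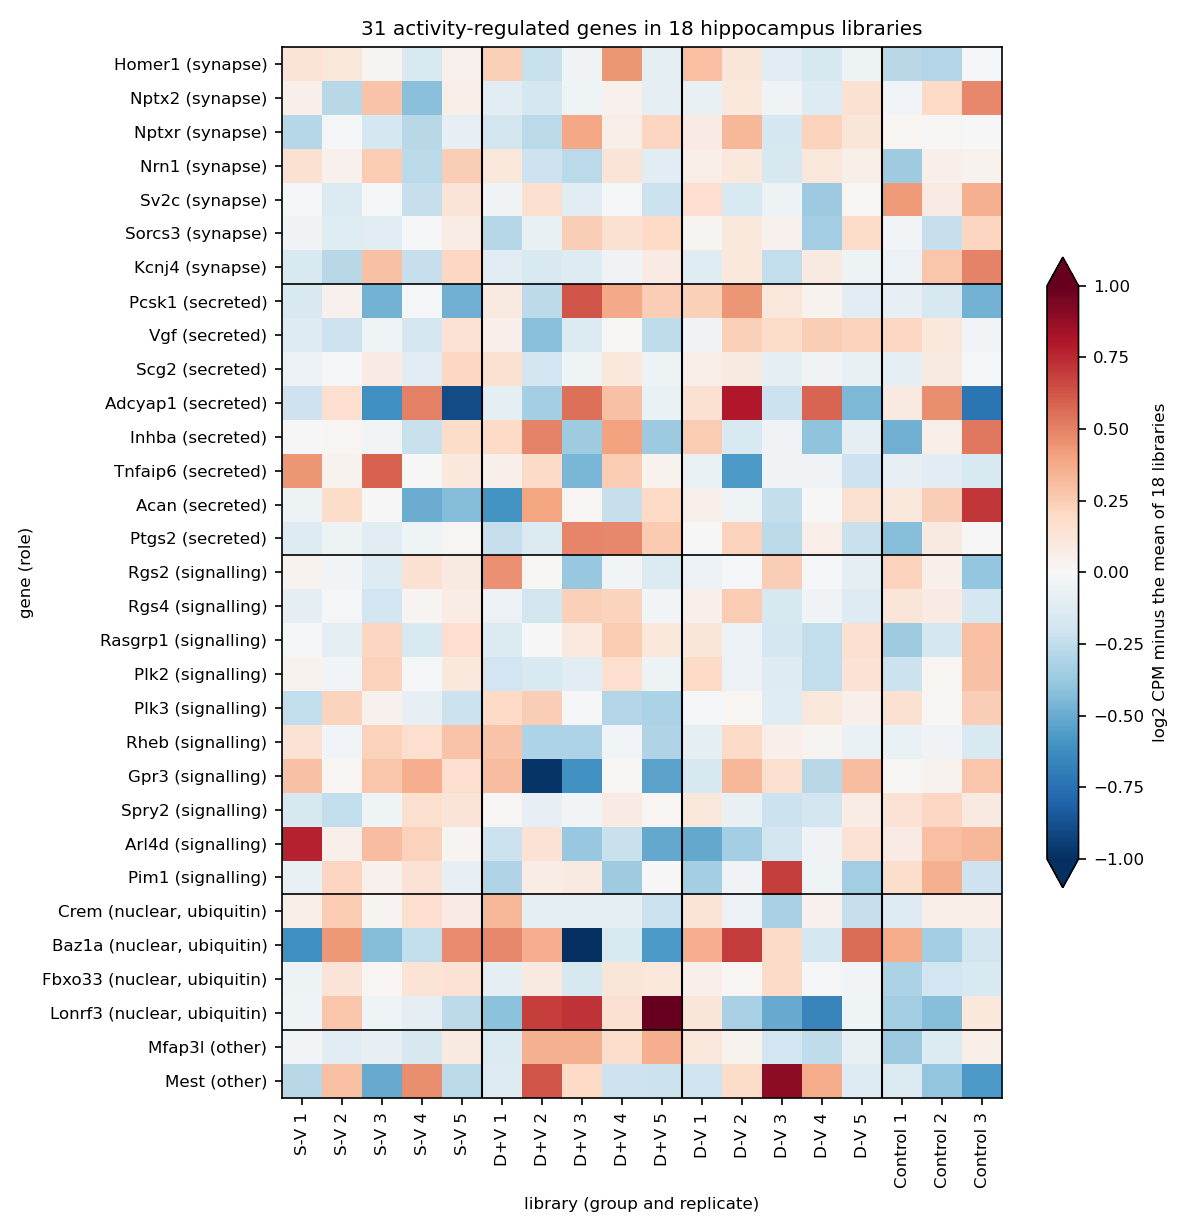
Log2 CPM of each gene (rows, ordered by role) in each of 18 libraries (columns, S-V, D+V, D-V, then Control), minus the mean of the gene over the 18 libraries, with colours cut at 1 in either direction. No group is of a single colour across the rows, and the libraries within a group differ from each other in many genes.

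Among the 7 synaptic genes, Sv2c, Nptx2 and Kcnj4 had lower means than Control in all 3 rotated groups, and Homer1 had higher means. For each of these genes the libraries of every rotated group overlapped with Control. Sv2c encodes a synaptic vesicle glycoprotein. Its level was 33.9, 31.1, 33.6, 29.2 and 37.4 CPM in S-V, 33.3, 38.3, 31.6, 33.7 and 29.5 CPM in D+V, 38.3, 30.8, 32.96, 26.6 and 34.7 CPM in D-V and 45.9, 36.3 and 43.7 CPM in Control. In each rotated group 4 of 5 libraries lay below the lowest Control library and 1 of 5 above it, so the groups overlapped. On the log2 scale the fold change was −0.34 in S-V (SE 0.11, adjusted p = 0.202), −0.33 in D+V (SE 0.11, adjusted p = 0.123) and −0.36 in D-V (SE 0.11, adjusted p = 0.7097). Over all rotated groups it was −0.35 (adjusted p = 0.148 in edgeR and 0.0349 in DESeq2).

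Homer1 encodes a scaffold that joins metabotropic glutamate receptors to Shank, and its short form Homer1a, made after activity, breaks that link. Gene-level counts cannot separate the short form from the long ones. Homer1 had 109.9, 108, 102, 89.9 and 103 CPM in S-V, 118, 85.98, 97.99, 136 and 93.9 CPM in D+V, 124, 109, 92.9, 89.8 and 96.9 CPM in D-V and 82.8, 81.9 and 98.7 CPM in Control. Above all 3 controls lay 4 of 5 S-V libraries, 2 of 5 D+V libraries and 2 of 5 D-V libraries. In the fit the log2 fold change was 0.23 in S-V (adjusted p = 0.463), 0.28 in D+V (adjusted p = 0.271) and 0.22 in D-V (adjusted p = 0.851). Its transcript has the lowest GC content of the 31 genes, 36.9%, and with the GC and length trend of each library removed the D+V value was 0.04.

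Nptx2, a secreted pentraxin that clusters AMPA receptors on interneurons, had 23.96, 19.1, 28.2, 17.4 and 24.2 CPM in S-V, 21.4, 20.5, 22.5, 23.9 and 21.8 CPM in D+V, 22.1, 24.99, 22.6, 21.2 and 25.8 CPM in D-V and 22.8, 26.6 and 32.4 CPM in Control. The highest of these 18 values was that of Control replicate 3. As log2, the fold change was −0.31 in D+V (SE 0.13, adjusted p = 0.225), and −0.16 without that library. Kcnj4, an inward-rectifier potassium channel of the postsynaptic membrane, averaged 69.4 ± 12.9 CPM in S-V, 66.95 ± 4.61 CPM in D+V and 68.2 ± 6.86 CPM in D-V (SD, n = 5 each), and had 67.3, 85.1 and 98.8 CPM in Control. Its log2 fold change was −0.32 in D+V (adjusted p = 0.1997) and −0.30 in D-V (adjusted p = 0.805). Without Control replicate 3 these values were −0.19 in D+V and −0.16 in D-V. That library was the highest of the 3 controls in 14 of the 31 genes (45.2%, beside 35.3% of all genes), among them Rasgrp1 (463, 525 and 731 CPM in the 3 controls), and it was the lowest in 11 (35.5%, beside 39.3%). Control replicate 1 was the lowest in 14 of the 31 (45.2%, beside 35.3%).

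The remaining synaptic genes showed small differences from Control. Nptxr, the transmembrane receptor of the neuronal pentraxins, had 866, 1044, 938, 872 and 998 CPM in S-V, against 1071, 1067 and 1051 CPM in Control. The 5 S-V libraries lay below all 3 controls, while the log2 fold change was −0.17 (SE 0.12, adjusted p = 0.576). Exons of Nptxr overlap those of Npcd on the same strand in the GENCODE M21 annotation, so its counts may hold reads of both. Nrn1, a membrane-anchored neuritin that promotes neurite growth, had log2 fold changes of 0.17 in S-V, 0.02 for D+V and 0.12 for D-V. For Sorcs3 they were −0.04, 0.06 and 0.02 in the same groups.

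Of the 8 genes for secreted proteins and their enzymes, Pcsk1 was higher after rotation in 2 directions and Tnfaip6 was higher in S-V, both without passing the correction. Pcsk1 encodes prohormone convertase 1, which cuts neuropeptide precursors in secretory granules. It had 17.6, 20.2, 14.2, 19.5 and 14.04 CPM in S-V, 20.9, 16.3, 30.4, 25.5 and 23.2 CPM in D+V, 23.1, 26.6, 21.3, 20.1 and 18.2 CPM in D-V and 18.5, 17.5 and 14.1 CPM in Control. In both D+V and D-V 4 of 5 libraries lay above all 3 controls, while S-V and Control overlapped. Its log2 fold change was 0.47 in D+V (SE 0.17, adjusted p = 0.161), 0.39 in D-V (SE 0.17, adjusted p = 0.808) and 0.03 in S-V (SE 0.17, adjusted p = 0.961).

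Tnfaip6, which encodes a hyaluronan-binding protein of the extracellular matrix, had 12.9, 9.65, 14.3, 9.37 and 10.1 CPM in S-V, 9.77, 10.8, 6.85, 11.3 and 9.64 CPM in D+V, 9.001, 6.31, 9.21, 9.18 and 8.17 CPM in D-V and 8.89, 8.76 and 8.46 CPM in Control. All 5 S-V libraries lay above all 3 controls and above all 5 D-V libraries, and the nearest were S-V 4 with 9.37 CPM and D-V 3 with 9.21 CPM. The log2 fold change was 0.37 in S-V (SE 0.17, adjusted p = 0.338), 0.16 in D+V and −0.06 in D-V. In all, libraries of the 2 groups did not overlap for 4 of the 31 genes in S-V against Control (12.4% of all genes), namely Fbxo33, Tnfaip6 and Rheb above and Nptxr below. In D+V this held for 1 gene, Spry2 below Control (7.63% of all genes), and in D-V for 1 gene, Fbxo33 above Control (5.12% of all genes).

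Acan encodes aggrecan, the proteoglycan of perineuronal nets around interneurons and CA2 cells. It had 4.66, 5.51, 4.85, 3.396 and 3.55 CPM in S-V, 3.16, 6.36, 4.89, 4.098 and 5.56 CPM in D+V, 4.99, 4.71, 4.09, 4.82 and 5.38 CPM in D-V and 5.24, 5.73 and 7.97 CPM in Control. Control replicate 3 was the highest of the 18 libraries, and the other 2 controls lay within the range of D+V. In the fit the log2 fold change was −0.52 in S-V (SE 0.21, adjusted p = 0.274), −0.39 in D+V and −0.39 in D-V. Without Control replicate 3 the S-V value was −0.32.

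Vgf encodes a neurotrophin-inducible precursor of secreted peptides. It had 166, 157, 175, 160.4 and 199.99 CPM in S-V, 187, 135, 165, 182 and 152 CPM in D+V, 177, 213, 205, 215 and 212 CPM in D-V and 209, 195 and 178 CPM in Control. In D-V 4 of 5 libraries lay above all D+V and S-V libraries, and D-V 1 lay among them. The log2 fold change of D-V was 0.32 against D+V (SE 0.09, adjusted p = 0.124) and 0.25 against S-V (SE 0.09, adjusted p = 0.675). Its transcript has the highest GC content of the 31 genes, 64.1%.

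The other secreted genes did not pass the test either, and their groups overlapped with Control. Ptgs2, the inducible cyclooxygenase that starts prostaglandin synthesis, had a log2 fold change of 0.30 in D+V (SE 0.16, adjusted p = 0.338), with 20.5, 21.7, 33.9, 33.5 and 28.9 CPM in D+V and 17.9, 25.6 and 24.1 CPM in Control. Adcyap1, the precursor of the peptide PACAP, ranged from 3.16 to 8.49 CPM in S-V, 4.69 to 8.75 CPM in D+V, 4.34 to 10.4 CPM in D-V and 3.55 to 8.26 CPM in Control. Inhba, a subunit of activin, ranged from 4.03 to 5.36 CPM in S-V, 3.65 to 6.68 CPM in D+V, 3.54 to 5.64 CPM in D-V and 3.35 to 6.85 CPM in Control. For both genes the range of each rotated group overlapped that of Control. Scg2 averaged 219 ± 19.4 CPM in S-V, 216 ± 20.04 CPM in D+V and 214 ± 12.4 CPM in D-V (SD, n = 5 each), and 215 ± 13.5 CPM in Control (SD, n = 3).

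Among the 10 signalling genes, Arl4d was lower after rotation in 2 directions and Rheb was higher in S-V, again short of the adjusted threshold. Arl4d encodes a small GTPase of the ARF family that recruits exchange factors to membranes. It had 17.4, 10.6, 12.6, 11.95 and 10.4 CPM in S-V, 8.73, 11.3, 7.804, 8.71 and 7.11 CPM in D+V, 7.09, 8.01, 8.95, 9.94 and 11.3 CPM in D-V and 10.8, 12.6 and 12.8 CPM in Control. In both D+V and D-V 4 of 5 libraries lay below all 3 controls, and S-V 1 was the highest of all. As log2, the fold change was −0.46 in D+V (SE 0.18, adjusted p = 0.176), −0.42 in D-V (SE 0.18, adjusted p = 0.804) and 0.07 in S-V (SE 0.18, adjusted p = 0.908).

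Rheb, the small GTPase that activates mTORC1, had 127, 113, 135, 129 and 140.4 CPM in S-V, 141, 92.8, 93.04, 113 and 93.4 CPM in D+V, 108, 131, 119, 118 and 110.04 CPM in D-V and 110.05, 112 and 104 CPM in Control. The 5 S-V libraries lay above the 3 controls, by a narrow margin in S-V 2, and D+V 1 stood apart from the other D+V libraries at the level of the highest S-V library. Its log2 fold change was 0.25 in S-V (SE 0.11, adjusted p = 0.351), −0.03 in D+V and 0.11 in D-V. Gpr3, a receptor that raises cyclic AMP without a known need for ligand, had 5.97, 2.39, 3.12, 4.85 and 3.28 CPM in D+V, against 5.897, 4.88, 5.85, 6.23 and 5.41 CPM in S-V. Libraries D+V 2, 3, 4 and 5 lay below all S-V libraries, D+V 4 by a narrow margin, and the log2 fold change of D+V against S-V was −0.52 (SE 0.20, adjusted p = 0.299).

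Spry2, a feedback inhibitor of receptor tyrosine kinase signalling, had 26.5, 24.9, 25.9, 27.98 and 26.7 CPM in D+V, against 29.2, 30.4 and 28.04 CPM in Control. The 5 D+V libraries lay below the 3 controls, with almost no gap between D+V 4 and Control replicate 3, and the log2 fold change was −0.15 (SE 0.10, adjusted p = 0.449). For Rgs2, Rgs4, Rasgrp1, Plk2 and Plk3 the log2 fold changes against Control lay between −0.19 (Plk3 in S-V, a polo-like kinase of stress responses) and 0.12 (Rasgrp1 in D+V, a Ras exchange factor driven by diacylglycerol). Pim1, a survival kinase, had −0.08 in S-V, −0.23 for D+V and −0.10 for D-V, and Gpr3 had 0.12, −0.40 and −0.02 in the same groups. Plk2, the polo-like kinase that weakens overactive synapses, had 0.02 in S-V, −0.11 for D+V and −0.05 for D-V.

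Fbxo33 had the smallest unadjusted p of the 31 genes in S-V. It encodes an F-box protein, the part of a ubiquitin ligase that selects substrates. Its level was 41.03, 46.4, 43.2, 46.8 and 47.02 CPM in S-V, 39.8, 45.2, 37.9, 46.3 and 45.6 CPM in D+V, 43.9, 43.1, 48.5, 41.9 and 41.6 CPM in D-V and 34.03, 37.2 and 38.1 CPM in Control. Above all 3 controls lay 5 of 5 S-V libraries, 4 of 5 D+V libraries and 5 of 5 D-V libraries, and D+V 3 lay just under the highest control. On the log2 scale the fold change was 0.30 in S-V (SE 0.08, adjusted p = 0.174), 0.24 in D+V (SE 0.08, adjusted p = 0.1299) and 0.26 in D-V (SE 0.08, adjusted p = 0.7097). With the GC and length trends removed these were 0.22, 0.19 and 0.22 in the same order.

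Fbxo33 was 1 of 4 genes with a nuclear or ubiquitin role. Lonrf3, a ring-finger protein with a protease-like domain, had 4.17, 5.22, 4.15, 4.03 and 3.55 CPM in S-V, 3.21, 6.99, 7.13, 4.77 and 9.21 CPM in D+V, 4.66, 3.396, 2.98, 2.67 and 4.15 CPM in D-V and 3.35, 3.16 and 4.62 CPM in Control. Libraries D+V 2, 3 and 5 were higher than all 15 others, and D+V 1 was at the level of the controls. The log2 fold change of D+V was 0.75 against Control (SE 0.26, adjusted p = 0.147). Crem encodes a CREB-related factor and, from an internal promoter, the repressor ICER, which gene-level counts cannot separate. Its log2 fold change was 0.12 in S-V, −0.02 for D+V and −0.08 for D-V. Baz1a, a subunit of chromatin remodelling complexes, had 6 to 37 counts a library and a log2 SE of 0.39 or more in each comparison with Control, with values of 0.01, −0.06 and 0.41 in S-V, D+V and D-V.

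Mfap3l, a membrane protein of the immunoglobulin superfamily, had the smallest adjusted p of the 31 genes in D+V. It had 44.9, 42.4, 43.3, 41.01 and 48.7 CPM in S-V, 41.4, 58.6, 58.6, 51.8 and 58.95 CPM in D+V, 49.5, 46.9, 40.2, 38.3 and 43.4 CPM in D-V and 35.6, 41.7 and 47.8 CPM in Control. Above all 3 controls lay 4 of 5 D+V libraries, and D+V 1 lay within the Control range. The log2 fold change was 0.37 in D+V (SE 0.12, adjusted p = 0.106), 0.08 in S-V and 0.07 in D-V. It was 0.13 in D+V with the GC and length trends removed.

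**Figure D3:**
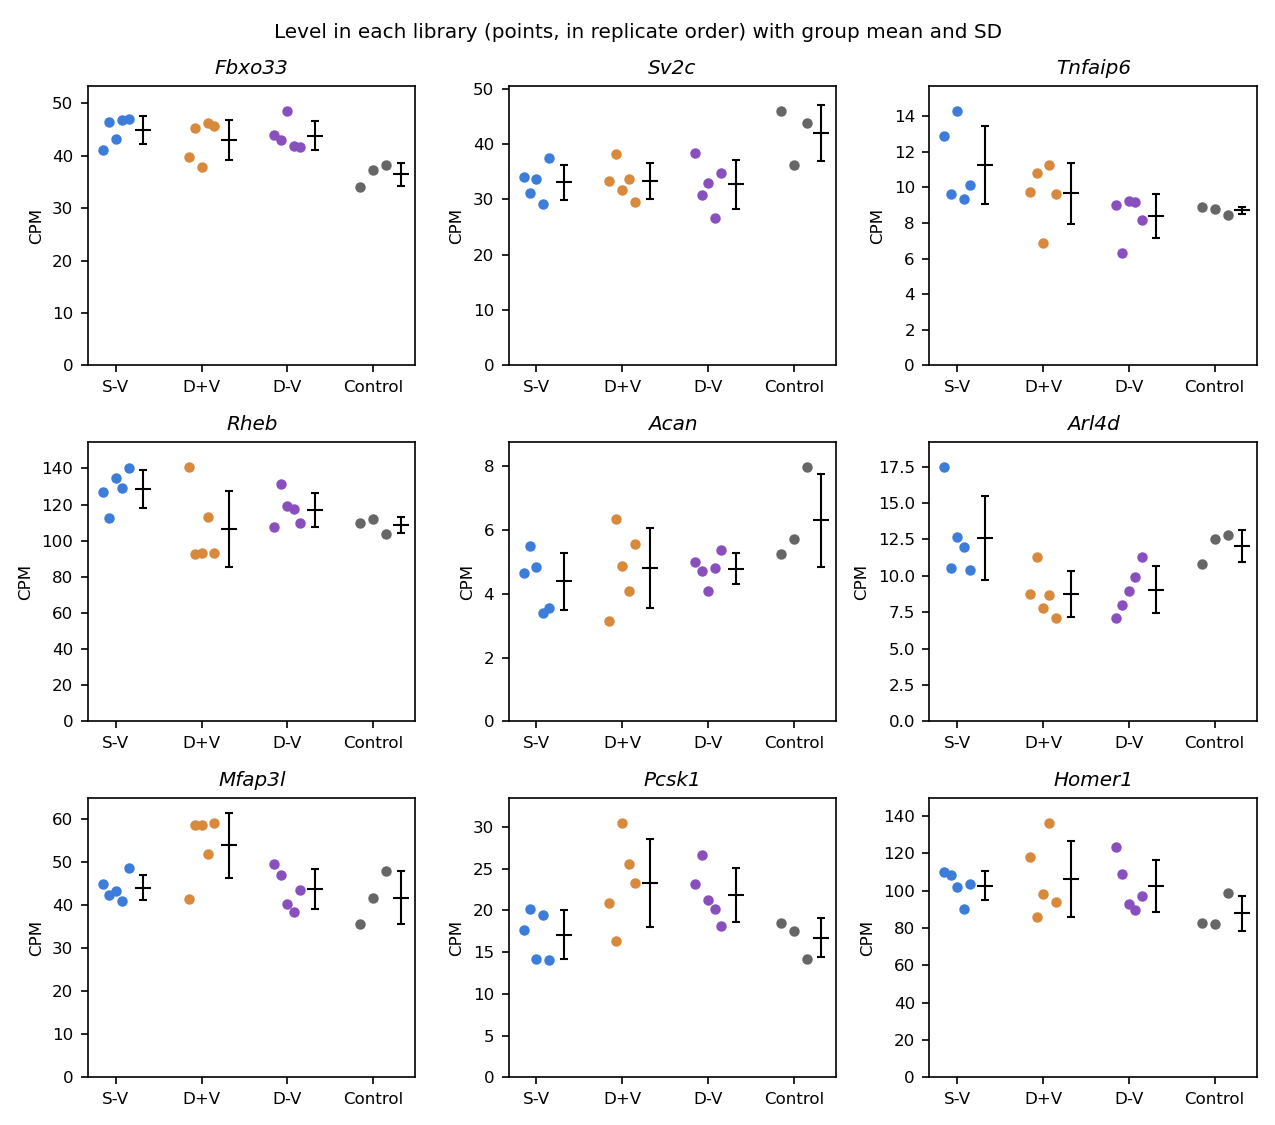
CPM in each library (points, in replicate order) with group mean and SD (bars) for 9 of the genes in S-V, D+V, D-V and Control, on axes that start at 0. Fbxo33 lies above and Sv2c below most Control values in each rotated group, Arl4d is lower and Pcsk1 higher in D+V and D-V, and D+V 1 stands apart from the other D+V libraries for Rheb and Mfap3l.

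Mest, an imprinted gene for an enzyme of the hydrolase fold, had its 5 highest levels in libraries with high choroid plexus markers. It had 15.7, 23.5, 13.4, 26.3 and 15.8 CPM in S-V, 17.4, 29.5, 21.9, 16.5 and 16.4 CPM in D+V, 16.6, 21.7, 35.4, 24.6 and 17.4 CPM in D-V and 17.3, 14.49 and 12.8 CPM in Control. The 6 libraries with high choroid plexus markers had 16.4 to 35.4 CPM, and the 12 others 12.8 to 21.9 CPM. D+V 5, 1 of these 6, lay within the range of the 12 others, and the highest of the 12 was D+V 3, which had the lowest choroid plexus score of the 18 libraries. The log2 fold change in D-V was 0.64 (SE 0.27, adjusted p = 0.805). It was 0.33 without those 6 libraries, 0.47 when the score of the choroid plexus markers was a covariate and 0.43 without D-V replicate 3, the library with the highest Mest level. Exons of Mest overlap those of Copg2 on the opposite strand, and the use of strand in counting was not stated.

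**Figure D4:**
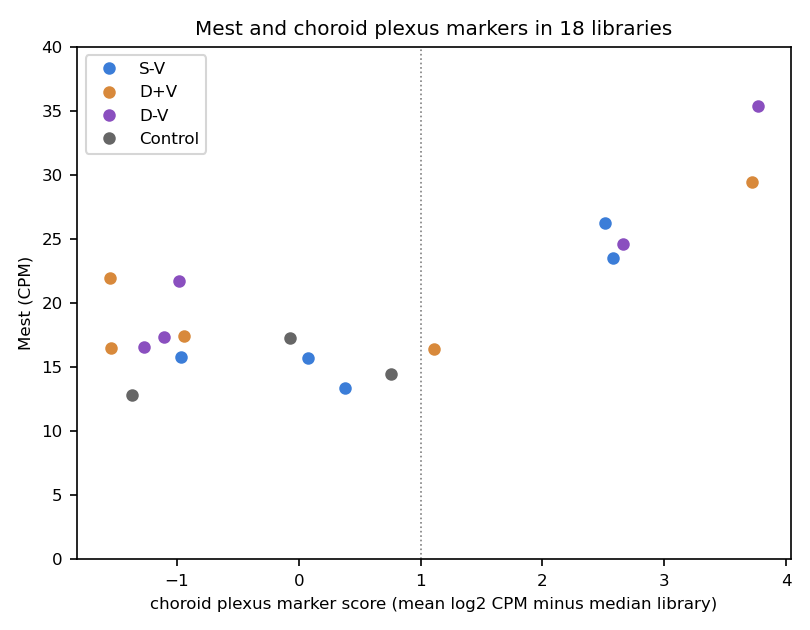
Mest level (CPM) in each of 18 libraries against the choroid plexus marker score of that library (mean log2 CPM of 15 markers, relative to the median library), with a dotted line at a score of 1. The 6 libraries with scores above 1 have 16.4 to 35.4 CPM of Mest, and the 12 others have 12.8 to 21.9 CPM, so the ranges overlap, through D+V 5.

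The comparisons between rotated groups separate vision (D-V against D+V) from the directions of rotation (D-V against S-V), and D+V against S-V differs in both. By edgeR, 0 of 31 genes passed in any of these, where 0% of all genes passed in D-V against S-V, 0% in D-V against D+V and 0% in D+V against S-V. In D-V against S-V 5 of the 31 genes had an unadjusted p under 0.05 (6.29% of all genes). Pcsk1, Vgf and Nptxr were higher in D-V, and Arl4d and Tnfaip6 were lower. For Arl4d the log2 fold change was −0.48 (SE 0.15, adjusted p = 0.671), for Tnfaip6 −0.43 (SE 0.15, adjusted p = 0.671), for Pcsk1 0.36 (SE 0.15, adjusted p = 0.7502), and for Nptxr 0.29 (SE 0.11, adjusted p = 0.721). The 5 D-V libraries lay below the 5 S-V libraries for 1 of the 31 genes, Tnfaip6 (2.05% of all genes did not overlap).

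In D-V against D+V 3 of the 31 genes had an unadjusted p under 0.05 (13.6% of all genes). Vgf was higher in D-V, and Lonrf3 and Mfap3l were lower, at −0.80 (SE 0.23, adjusted p = 0.136) and −0.30 (SE 0.10, adjusted p = 0.194) on the log2 scale. DESeq2 called Vgf (adjusted p = 0.0383) and Lonrf3 (adjusted p = 0.0440) in this comparison, where it called 1.88% of all genes. In D+V against S-V 7 of the 31 genes had an unadjusted p under 0.05 (12.8% of all genes). Pcsk1, Mfap3l, Lonrf3 and Nptxr were higher in D+V, and Arl4d, Rheb and Gpr3 were lower. As log2, the fold change was −0.53 for Arl4d (adjusted p = 0.209) and 0.44 for Pcsk1 (adjusted p = 0.267).

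Libraries D+V 2, 3 and 5 did not overlap with D+V 1 and 4 for 10 of the 31 genes (32.3%), beside 33.1% of all genes, so the division was no more frequent among the 31 genes than over the table. Acan, Pim1, Lonrf3 and Mfap3l were higher in D+V 2, 3 and 5, and Homer1, Nrn1, Vgf, Scg2, Rheb and Gpr3 were lower. Without these 3 libraries the log2 fold change of D+V against Control was 0.11 for Lonrf3, 0.16 for Mfap3l, −0.07 for Vgf and 0.53 for Homer1. Library D+V 1 bore on the calls. Without it edgeR called Fbxo33, Lonrf3 and Mfap3l in D+V against Control (8.58% of all genes called), Lonrf3, Mfap3l, Rheb and Vgf in D-V against D+V (8.38% of all genes called), and Arl4d, Gpr3, Lonrf3, Mfap3l and Rheb in D+V against S-V (10.1% of all genes called). Without Control replicate 3 it called Mfap3l in D+V against Control (adjusted p = 0.0486, 2.7% of all genes called). The scores of 6 astrocyte markers in D+V 2, 3 and 5 were 0.32, 0.30 and 0.30 (log2 CPM relative to the median library), against −0.11 to 0.02 in Control, and their part in these values was not tested.

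The fold changes of the 31 genes also moved with the GC content of their transcripts. Over the 31 genes, Spearman's rho between fold change and GC content was −0.48 in S-V, −0.61 for D+V and −0.39 for D-V, beside −0.43, −0.52 and −0.24 over 14743 genes. The points of a comparison share the same libraries, so rho is a description. Of the 15 genes with the lower GC content 11 had positive values in S-V, 11 for D+V and 10 for D-V, and of the 16 others 7, 6 and 5 had positive values in the same order. When the GC and length trend of each library was removed, the count at an unadjusted p under 0.05 was 4 of 31 in S-V (12.9%, beside 7.62% of all genes), 4 of 31 in D+V (12.9%, beside 7.84%) and 5 of 31 in D-V (16.1%, beside 5.77%). Sv2c then had −0.33, −0.48 and −0.38 in S-V, D+V and D-V, while in D+V the values of Vgf, Kcnj4 and Nptx2 were −0.06, −0.16 and −0.15, and that of Pcsk1 was 0.26.

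**Figure D5:**
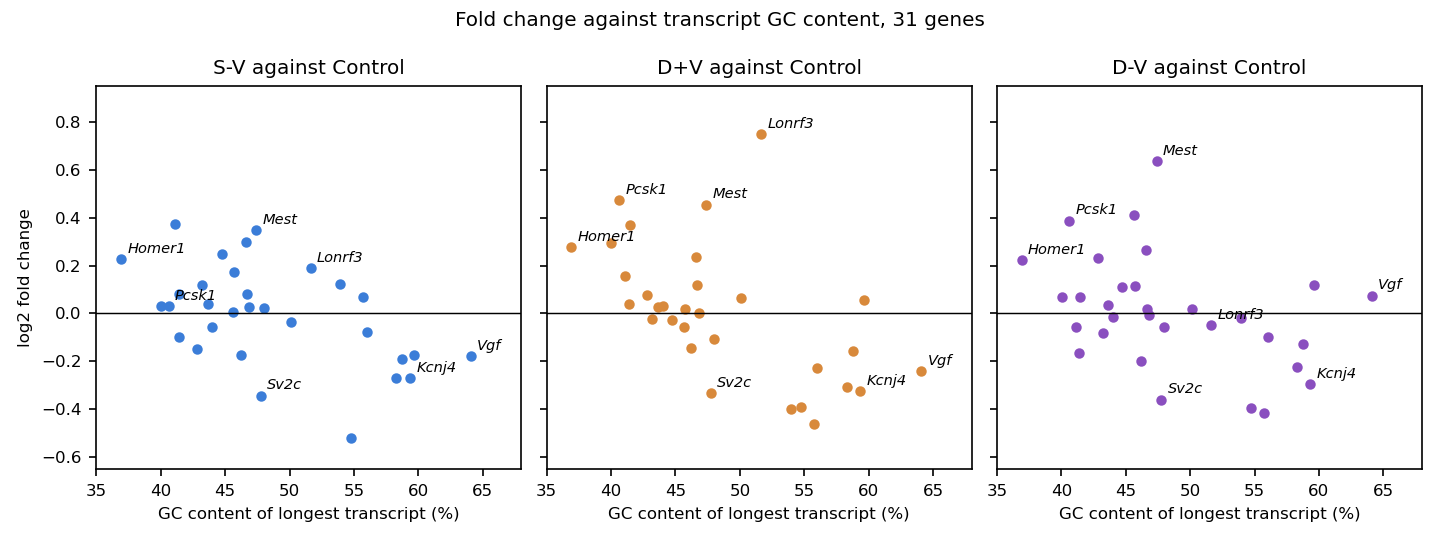
Log2 fold change of each of the 31 genes against the GC content of its longest transcript (%), for S-V, D+V and D-V, each against Control. Points slope downward in each panel (Spearman's rho −0.48, −0.61 and −0.39), with Homer1 at the lowest GC content and Vgf at the highest.

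The genes that act before and around these 31 were read from the same fit. The 36 early genes belong to the first wave, with transcription factors and phosphatases among them. Of these 36, 0 passed in any comparison with Control by edgeR, DESeq2 (which called 0.0203% of all genes in D-V) or limma's voom. In D+V 12 of 36 had an unadjusted p under 0.05, all lower (33.3%, beside 6.86% of all genes lower and 17.6% in either direction), with a median log2 fold change of −0.22, and the smallest p-values were those of Egr2 (−0.99, SE 0.30, adjusted p = 0.0967), Npas4 (−0.67, SE 0.22, adjusted p = 0.123) and Atf3 (−0.95, SE 0.33, adjusted p = 0.1395). Endothelial and pericyte markers were lower in D+V too, with 5 of 8 lower at an unadjusted p under 0.05 (62.5%, beside 6.86% of all genes). Their median log2 fold change was −0.34, and their scores did not overlap with Control. At that p 2 of 8 were lower in S-V (5.95% of all genes). In D-V 1 of 8 was lower (2.65% of all genes) and 1 higher (3.37% of all genes). All 5 red blood cell markers were higher in D+V at an unadjusted p under 0.05 (10.8% of all genes), with a median of 1.51. All 5 were also higher in D-V at that p (3.37% of all genes), with a median of 1.18, while 0 of 5 reached it in S-V. The part of these markers in the values of the early genes was not tested. The values of the early genes come from the fit without removal of GC and length trends. In that fit rho between fold change and GC content was −0.52 over 14743 genes in D+V. In S-V 3 of 36 early genes had an unadjusted p under 0.05 (8.33%, beside 13.4% of all genes), with a median of 0.03, namely Jund at −0.28, Npas4 at −0.53 and Dusp5, a phosphatase of MAP kinases, at 0.36. In D-V 2 of 36 did (5.56%, beside 6.02% of all genes), with a median of −0.06, Egr2 at −0.69 and Klf2 at −0.40, and Klf10 followed at 0.31.

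Of 34 genes for the kinases, phosphatases and factors that carry calcium and cyclic AMP signals to the nucleus, 0 passed in any comparison with Control. The median log2 fold change was 0.03 in S-V, 0.06 for D+V and 0.00 for D-V, and at an unadjusted p under 0.05 the counts were 5 of 34 (14.7%, beside 13.4% of all genes), 7 of 34 (20.6%, beside 17.6%) and 3 of 34 (8.82%, beside 6.02%) in the same order. The smallest p-values in D+V were those of Camk4, a kinase that phosphorylates CREB in the nucleus (0.65, SE 0.16, adjusted p = 0.0533), Hdac4, a histone deacetylase that binds MEF2 (0.37, adjusted p = 0.06797), and Elk1, a partner of SRF (−0.32, adjusted p = 0.0731). DESeq2 called 4 of the 34 genes in D+V, where it called 5.14% of all genes. In S-V they were those of Rps6ka2, a kinase downstream of ERK (−0.28, adjusted p = 0.257), Creb1 (0.26, adjusted p = 0.274) and Ppp3cb, a catalytic subunit of calcineurin (0.20, adjusted p = 0.274). In D-V they were those of Hdac4 (0.32, adjusted p = 0.7097), Elk1 (−0.23, adjusted p = 0.747) and Crtc2, a coactivator of CREB (0.22, adjusted p = 0.822).

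Of 41 partners, the receptors, scaffolds, proteases and matrix proteins that the 31 gene products bind or act with, 1 passed, in D+V, where 0.942% of all genes passed. Hapln1, which encodes the link protein that fixes aggrecan to hyaluronan in perineuronal nets, averaged 26.7 ± 0.790 CPM in D+V (SD, n = 5) and 19.7 ± 3.65 CPM in Control (SD, n = 3). The libraries of the 2 groups did not overlap, and the log2 fold change in D+V was 0.44 (SE 0.09, adjusted p = 0.0395). That call was kept in 7 of 18 fits that each left out 1 library, with log2 fold changes of 0.30 to 0.55. It was lost without any 1 of the 5 S-V libraries, without D+V 3, 4 or 5, without D-V 5, without Control replicate 1 or 2, and with the GC and length trends removed. The median over the 41 partners was −0.08 in S-V and 0.01 in D+V, and its size in D-V was under 0.01. Adcyap1r1, the receptor of the peptide that Adcyap1 encodes, had log2 values of −0.24 in S-V (adjusted p = 0.204) and −0.20 in D-V (adjusted p = 0.747). In S-V the smallest p-values were those of Tsc2, which restrains Rheb (−0.21, adjusted p = 0.202), and Bcan, the matrix proteoglycan brevican (−0.22, adjusted p = 0.202). In D+V, Hapln1 was followed by Gria4, an AMPA receptor subunit that Nptx2 gathers at interneuron synapses (0.34, adjusted p = 0.124), and Acvr2a, an activin receptor (0.27, adjusted p = 0.183). In D-V, Smad3, which carries activin signals to the nucleus, had −0.30 (adjusted p = 0.7097) and Hapln1 had 0.21 (adjusted p = 0.805).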

How the data were processed

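Polyadenylated RNA of 18 hippocampus samples was sequenced, per the labels' protocols. The authors deposited a table of estimated counts, partly with decimals and without normalization, per the file headers and the values. The submitters' processing notes name HISAT2, StringTie 1.3.1, Bowtie2 2.2.8 and DESeq2 without a role or order. Not given in the sources used here were the build, the annotation and the strand setting. Exons of 8 of the 31 genes overlap those of another gene. For 6 of them that gene lies on the opposite strand, and reads are mixed if strand was not used. For Baz1a and Nptxr it lies on the same strand, so strand cannot separate the reads.

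Here the estimated counts were rounded, genes were filtered with filterByExpr (14763 kept, with 99.97% of counts) and scaled by TMM, and 4 group means were fitted over 18 libraries with edgeR 4.0.16 in R 4.3.3, using the robust quasi-likelihood test and Benjamini-Hochberg adjustment over all genes. SE is the size of the log2 fold change divided by the square root of F. CPM values of single genes use TMM library sizes, summed marker levels use unscaled library totals, and log2 CPM has a prior count of 2. Common biological variation was 15.4%, and the median over the 31 genes was 12.9%. The totals were 15.03 to 25.3 M counts a library. PCR copies were not marked, so counts are not independent molecules. Alternatives were DESeq2 1.42.0, limma 3.58.1 with voom, other scaling and filters, marker scores as covariates, a replicate block, and removal of GC and length trends by splines on transcripts of GENCODE M21. The robust option was chosen so that the number of all genes called matched an earlier processing of these data. The test was run on simulated data first. The members, lists and tests were chosen with earlier results of these data known. Values in every sample are given for members past the adjusted threshold, members without overlap against Control at an unadjusted p under 0.05, and otherwise the 3 with the smallest p in each comparison with Control (Fbxo33, Sv2c, Acan, Tnfaip6, Rheb, Arl4d and Mfap3l). The other members given by library were chosen after their values were seen. No pair of replicates of a group agreed within sampling noise (lowest chi-square per degree of freedom 5.50).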

Additional observations from a re-analysis of the deposited data

Results flagged for a closer look

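In 93 groups of 5 libraries (31 genes in 3 rotated groups), the gap of the highest or lowest library to its nearest neighbour was above 0.71 of the group's range, the 95% critical value of Dixon's test, in 4. Chance gives about 1 in 20 groups. Crem in D+V replicate 1 had 12.7 CPM, against 8.71 to 9.50 CPM in the other D+V libraries. Nrn1 in D-V replicate 3 had 212 CPM, against 246 to 256 CPM in the other D-V libraries. Rgs2 in D-V replicate 3 had 36.1 CPM, against 28.7 to 30.3 CPM in the others. Vgf in D-V replicate 1 had 177 CPM, against 205 to 215 CPM in the others. D-V replicate 3 also had the highest choroid plexus score of the 18 libraries, 3.77 on the log2 scale.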

How the results depend on the processing

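In the 12 comparisons with Control in which a member named by rule had an unadjusted p under 0.05, its log2 fold change kept its sign in each of the 32 alternatives run. These members were picked for their values in the same libraries that the alternatives reuse, so the kept signs are a description and no separate test. The number of the 31 genes called stayed at 0 for D-V against Control, as it did for D-V against S-V. DESeq2 called 1 in S-V against Control, 2 in D+V against Control, 2 over all rotated groups and 2 in D-V against D+V. In fits without 1 library the count ran from 0 to 3 in D+V against Control, 0 to 4 in D-V against D+V and 0 to 5 in D+V against S-V. The medians lie near 0, and their sign turned with the setting. With GC and length trends removed they were −0.0202 in S-V and −0.0501 in D+V, and with the replicate block besides −0.0398 and −0.0326. Upper quartile scaling gave −0.0253 in D+V. With the thalamus and habenula score as a covariate they were −0.0221 in S-V, −0.0925 in D-V, −0.0395 over all rotated groups and −0.0925 in D-V against S-V. Without the 6 libraries with high choroid plexus markers they were 0.0878 in D+V and 0.0624 in D-V. Without D+V 2, 3 and 5, an alternative added after seeing the data, they were 0.112 in D+V, 0.0527 over all rotated groups and −0.0747 in D-V against D+V. In fits without 1 library the medians ran from −0.0217 to 0.0820 in S-V, −0.0366 to 0.0288 in D+V, −0.0490 to 0.0710 in D-V and −0.0245 to 0.0559 in D+V against S-V. Of the 34 genes that carry signals to the nucleus, which are not members, the stricter filter called 1 in D+V. DESeq2 called 4 of the 34 in D+V (5.14% of all genes) and 1 over all rotated groups (1.75% of all genes). The choroid plexus covariate gave 3 of the 34, and fits without 1 library gave 0 to 6 in D+V. With that covariate 2.37% of all genes were called in D+V, and in the fit without D+V replicate 1 the share was 8.58%. For early genes, fits without 1 library called 0 to 1 in D+V. For partners in D+V, the count was 0 with only the groups compared, with the replicate block, with GC and length trends removed, with both, with the thalamus and habenula covariate, without the 6 libraries and without D+V 2, 3 and 5, and 0 to 5 in fits without 1 library. DESeq2 called 1 partner over all rotated groups. Over all genes, D+V against Control called 0 to 1260, with the most (8.58%) in the fit without D+V replicate 1. The list counts in D+V stand beside that range. Replicate numbers did not pair libraries: same-numbered libraries had correlations of −0.45 to 0.34, and 3 of 18 correlated best with their own number. The block left 0 of 31 genes called in S-V (0% of all genes), D+V (0.0271%) and D-V (0%) against Control, and 9 at an unadjusted p under 0.05 in D+V (beside 15.9% of all genes). With 3 controls, intervals of genes with few counts, such as Baz1a, are wide. The cause of these shifts was not tested.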
